A study of Mus musculus with 103 samples.

Results

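Kidney tubule segment genes are transcripts that mark successive stretches of the nephron. The set was defined by name as 10 genes, Umod, Slc12a1, Slc12a3, Miox, Cltrn, Slc5a12, Slc34a1, Aqp2, Lrp2 and Kap, and their levels were read in kidney cells and in every other tissue group. The array annotation used here gave 12 probe sets for 8 of the 10 genes, out of 17097 genes measured. Slc34a1 and Lrp2 were not analysed here. For each gene the probe set with the highest mean over all arrays was used, and levels are on the log2 scale as deposited.

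The study followed and oncogenically targeted mouse cells that express Prom1, which encodes the membrane protein Prominin1, and its samples fell into 29 groups. Of these samples, 40 were cells taken with magnetic beads against Prominin1 from kidney (n = 4), uterus (n = 4), stomach (n = 2), small intestine (n = 3), salivary gland (n = 3), prostate (n = 3), lung (n = 4), liver treated with DDC (n = 9), a compound used to injure mouse liver, neonatal liver (n = 3) and untreated liver (n = 5). The other samples were 56 dissected primary tumours and 7 dissected metastases, among them 14 of hepatocellular carcinoma/cholangiocarcinoma (written HCC/CC), 2 of hepatoblastoma, bronchopulmonary adenocarcinoma (n = 2), uterine carcinoma (n = 3), small intestinal adenoma (n = 3), gastric adenoma (n = 7), gastric adenocarcinoma (n = 4) and prostatic adenocarcinoma (n = 8). No kidney tumour was analysed here. The labels give no strain, genotype, sex or driver allele for these samples and, apart from neonatal, no age. Whether the replicates are different animals is not stated, and the p-values below cover the spread among the samples given, which may be technical.

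In the nephron, the proximal tubule recovers most of the filtered solutes by sodium-coupled transport, the thick ascending limb takes up salt without water, the distal convoluted tubule adjusts the remaining sodium and the collecting duct sets water loss under vasopressin. Umod encodes uromodulin, the main protein of normal urine, and Slc12a1 the furosemide-sensitive Na-K-2Cl cotransporter; both are thick limb genes. Slc12a3 encodes the thiazide-sensitive NaCl cotransporter of the distal convoluted tubule, and Aqp2 the vasopressin-regulated water channel of collecting duct principal cells. Of the proximal tubule genes, Miox encodes myo-inositol oxygenase, Cltrn collectrin, a partner of neutral amino acid transporters, Slc5a12 a sodium-coupled lactate transporter, and Kap the androgen-regulated kidney protein of mice.

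RefSeq promoter sequences on GRCm38.p6 were available for 7 of the 8 measured genes and are shown because these genes were high together in kidney cells. Each runs from 250 bases before to 50 bases after the annotated start. Of 10 motifs searched on both strands, TATAAA, the letters of the TATA box, lay in the promoters of 3 of these 7 genes, Kap, Miox and Slc12a3, and in 13.6% of 32851 promoters of the same length. In the sequences below, written 5′ to 3′ on the strand of the gene, capitals mark these letters, which were chosen for display after the matches were seen. The first base of the motif lies at position -31 in Kap (chr6:133853618-133853917, minus strand), at -40 in Miox (chr15:89334223-89334522, plus strand) and at -32 in Slc12a3 (chr8:94328958-94329257, plus strand), counted from the start. Umod (chr7:119479213-119479512, minus strand) is shown as a thick limb gene without the motif in this window.
Kap promoter: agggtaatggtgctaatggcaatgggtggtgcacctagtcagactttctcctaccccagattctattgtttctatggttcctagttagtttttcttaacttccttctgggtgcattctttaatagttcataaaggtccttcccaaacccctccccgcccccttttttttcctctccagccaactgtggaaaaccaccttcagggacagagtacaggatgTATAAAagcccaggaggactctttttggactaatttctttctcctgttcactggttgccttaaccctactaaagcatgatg
Miox promoter: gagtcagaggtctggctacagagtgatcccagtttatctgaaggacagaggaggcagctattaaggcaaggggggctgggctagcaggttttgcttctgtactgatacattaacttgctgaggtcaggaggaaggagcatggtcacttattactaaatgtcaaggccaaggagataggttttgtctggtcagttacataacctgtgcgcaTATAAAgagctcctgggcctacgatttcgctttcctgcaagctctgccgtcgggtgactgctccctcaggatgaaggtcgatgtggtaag
Slc12a3 promoter: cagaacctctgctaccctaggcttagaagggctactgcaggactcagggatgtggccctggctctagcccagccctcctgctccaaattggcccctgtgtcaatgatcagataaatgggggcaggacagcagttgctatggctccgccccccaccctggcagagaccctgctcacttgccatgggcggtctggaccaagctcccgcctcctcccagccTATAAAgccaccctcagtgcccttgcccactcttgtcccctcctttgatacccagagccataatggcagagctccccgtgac
Umod promoter: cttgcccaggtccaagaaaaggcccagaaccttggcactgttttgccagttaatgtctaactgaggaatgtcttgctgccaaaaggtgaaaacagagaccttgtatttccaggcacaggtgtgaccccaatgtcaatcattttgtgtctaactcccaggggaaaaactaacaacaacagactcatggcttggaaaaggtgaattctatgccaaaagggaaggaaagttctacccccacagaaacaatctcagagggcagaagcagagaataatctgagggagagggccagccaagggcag
AGATAA, the letters that factors of the GATA family recognise, lay in the promoters of 3 of the 7 genes (Aqp2, Miox and Slc12a3) and in 11.2% of all promoters. GCCNNNGGC, bound by AP2 factors, lay in 2 (Slc12a3 and Umod) and in 16.6%, and TGTTCT, a part of the androgen response element, in 2 (Aqp2 and Cltrn) and in 19.0%. The full androgen response element lay in none of the 7 and in 0.00913% of all promoters (3 of 32851). A motif this rare was unlikely to be met in 7 promoters, so its absence, also in Kap, tells little. The other motifs searched also lay in none of the 7, and each in 0.0244% to 1.79% of all promoters. A match in these letters is a description of the sequence and does not show binding.

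In kidney cells all 8 measured genes were higher than in sorted cells of the other 7 untreated organs. Each gene passed an adjusted p under 0.05 with a log2 difference of at least 1 in limma with Benjamini-Hochberg adjustment, the rule for every call below. The rule called 16.4% of all 13051 genes tested higher and 17.3% lower in kidney. For each of the 8 genes every kidney sample also lay above every sample of the other 7 organs, which held for 8.35% of all genes tested. Since these genes were listed as kidney markers with results of these arrays known, that count describes the samples and is not independent evidence of their direction.

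Slc12a1 and Umod, the thick limb genes, were high in all 4 kidney samples, and Slc12a1 had the smallest range of the 8 genes there. Slc12a1 measured 12.60, 12.62, 12.61 and 12.64 in the 4 kidney samples, against 2.47 to 3.69 (median 2.87) in all 99 samples outside kidney. No sample outside kidney reached 4.08, the 40th percentile of the group means of sorted cells, which served as the filter value for low levels. Umod measured 13.057, 12.997, 13.201 and 13.083 in kidney samples, against a median of 2.64 in the 99 other samples. The difference from the mean of the other 7 organs was 10.32 ± 0.12 (SE) for Umod and 9.67 ± 0.14 for Slc12a1, with adjusted p of 2.46e-37 and 1.59e-34 in limma. Since the levels outside kidney are at the low end of the array, the sizes of these differences depend on how the array reads low values.

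Slc12a3, the distal convoluted tubule gene, measured 9.08, 9.06, 9.49 and 9.25 in kidney samples, against 2.66 to 3.70 (median 3.04) in the 99 other samples. Its difference from the other organs was 5.98 ± 0.14 (limma, adjusted p = 5.33e-29), and no sample outside kidney passed the filter value. A second Slc12a3 probe set stayed at 3.25 ± 0.20 (SD, n = 4) in kidney, under the filter value, and correlated with the first at r = 0.39 over all arrays. The Slc12a3 values therefore rest on 1 of its 2 probe sets.

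Aqp2, the collecting duct gene, measured 5.77, 5.57, 6.39 and 5.53 in kidney samples, and the 99 other samples ran between 2.86 and 5.33 (median 3.51). The highest of these was untreated liver sample 2, followed by lung sample 3 at 5.08. Lung sample 3 had the highest array median (4.24) and the lowest 75th percentile (5.76) of all arrays, and its Slc5a12 value below comes from the same array. The groups did not overlap, but the gap between kidney sample 4 and liver sample 2 was small. The mean difference from the other 7 organs was 1.84 ± 0.25 (limma, adjusted p = 1.17e-07), and 1.65 without kidney sample 3. Of the 99 other samples, 10 passed the filter value for Aqp2, all of them sorted cells: 3 of untreated liver, 2 each of prostate and small intestine, and 1 each of stomach, lung and DDC-treated liver.

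The proximal tubule genes had the same kidney-high pattern. Miox measured 12.68, 12.80, 12.57 and 12.69 in kidney samples, with a median of 2.87 elsewhere. Cltrn measured 12.88, 12.89, 12.91 and 12.79, with a median of 2.92 elsewhere. Slc5a12 measured 12.64, 12.73, 12.51 and 12.54 in kidney samples and a median of 2.71 elsewhere. Kap measured 12.35, 12.35, 12.49 and 12.42 in kidney samples and a median of 3.18 elsewhere. Unlike Slc12a1 and Slc12a3, these 4 genes each had samples outside kidney over the filter value, 9 for Miox, 9 for Cltrn, 5 for Slc5a12 and 6 for Kap. Differences from the other 7 organs were 9.67 ± 0.27 for Miox, 9.57 ± 0.31 for Cltrn, 8.99 ± 0.34 for Slc5a12 and 8.51 ± 0.58 for Kap. The larger error of Kap went with uterus cells and untreated liver sample 1, described below. Without that liver sample the Kap difference was 8.69.

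**Figure D1:**
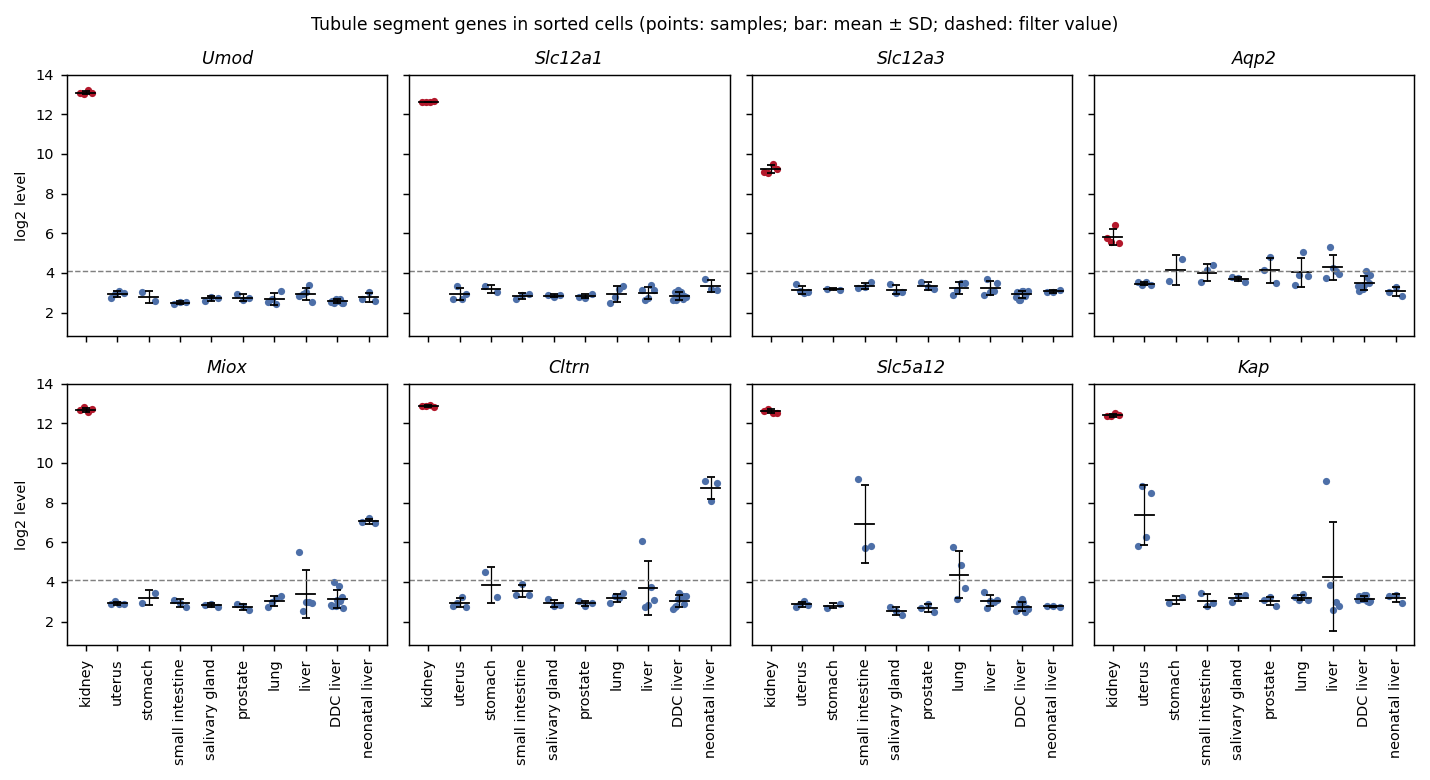
Log2 levels of the 8 tubule genes (y axis) in each sample of the 10 groups of sorted cells (x axis, kidney first), with points for samples, bars for mean ± SD and a dashed line at the filter value of 4.08. All 4 kidney samples lie above every other sample in each panel, with the smallest gap for Aqp2.

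The 4 kidney samples differed little, and most for the distal genes. The range was 0.87 for Aqp2 and 0.43 for Slc12a3, and 0.04 for Slc12a1 on the same log2 scale. Kidney sample 3 was the highest of the 4 for Aqp2, Slc12a3, Umod, Kap and Cltrn, and the lowest for Miox and Slc5a12. Aqp2 lay 0.58 and Slc12a3 0.27 above their kidney means in that sample, while Miox was 0.12 and Slc5a12 0.09 below. Whether the samples held different shares of tubule segments was not tested, and in such bulk cells fewer cells of a type and less RNA per cell cannot be told apart.

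**Figure D2:**
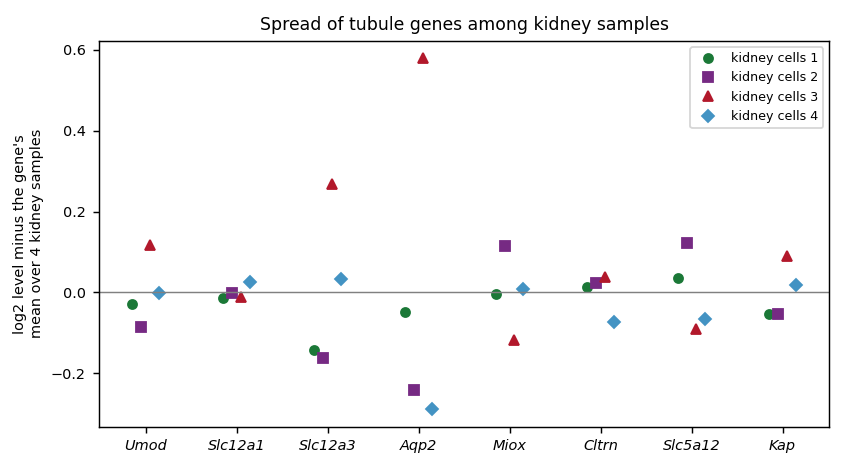
Each kidney sample's log2 level minus the mean of the 4 kidney samples (y axis) for the 8 tubule genes (x axis), with 1 symbol per sample. Kidney sample 3 lies 0.58 above the mean for Aqp2 and 0.27 above it for Slc12a3, and below it for Miox and Slc5a12.

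Other genes of the same segments were read from marker lists. Of 21 proximal tubule genes tested, 20 were called higher in kidney cells and 0 lower, with a median difference of 6.20 against -0.11 over all genes tested. The 4 with the largest differences were Acsm2, an acyl-CoA synthetase (8.62 ± 0.17), Cubn, the endocytic receptor cubilin (8.38 ± 0.26), Slc22a8, an organic anion transporter (8.27 ± 0.12), and Keg1, a mouse kidney-expressed gene (8.23 ± 0.42). Napsa, an aspartic protease, was the tested gene not called, at 3.13 in kidney cells and 3.71 in the other organs. Pck1, also of this list, did not pass the filter and was not tested. It measured 3.17 in kidney cells and 2.82 to 3.24 in untreated liver samples. Enox1 of the thick ascending limb list, at 3.35 in kidney cells, was likewise not tested. All 9 thick ascending limb genes tested were called higher, with a median of 5.37. Among them were Egf, the epidermal growth factor precursor (6.82 ± 0.16), Kcnj1, the potassium channel ROMK (6.38 ± 0.14), Ptger3, a prostaglandin E receptor (6.25 ± 0.18), and Ppp1r1a, a phosphatase inhibitor (5.50 ± 0.19). All 7 distal convoluted tubule genes were called higher, with a median of 3.09, led by Tmem52b (6.23 ± 0.17), the calcium binder Calb1 (5.19 ± 0.20), the kinase gene Wnk4 (4.14 ± 0.20) and the calcium binder Pvalb (3.09 ± 0.23). Of the called genes named here, Egf and Calb1 overlapped between kidney samples and samples of the other 7 organs. For the others named, every kidney sample lay above.

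Collecting duct markers were mixed. Of 10 connecting tubule and principal cell genes tested, 3 were called higher and 1 lower, with a median difference of 0.22. Aqp3, the basolateral water channel, differed by 3.53 ± 0.23, Fxyd4, a regulator of the sodium pump, by 3.27 ± 0.24, and Avpr2, the vasopressin receptor, by 2.39 ± 0.14. Elf5, a transcription factor, was lower by 2.41 on the log2 scale, at 3.14 in kidney cells and 5.55 in the other organs. The epithelial sodium channel subunits were not called, at 5.92 in kidney cells and 5.30 in the other organs for Scnn1a, 3.48 and 4.14 for Scnn1b, and 4.20 and 4.39 for Scnn1g. Of 7 intercalated cell genes, 3 were higher and 2 lower, with a median of 0.01. Atp6v1b1, a proton pump subunit, was higher by 3.70 ± 0.15, Rhcg, an ammonia channel, by 1.56 ± 0.14 and Slc26a4, the anion exchanger pendrin, by 1.04 ± 0.33. Atp6v0d2, another proton pump subunit, measured 4.38 in kidney cells and 6.46 elsewhere, and Foxi1, an intercalated cell transcription factor, 3.08 and 4.11; both were called lower.

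Of 11 nephron transcription factors tested, 9 were called higher in kidney cells and 0 lower, with a median of 3.14. Hnf4a, a proximal tubule regulator also active in liver and gut, was higher by 4.97 ± 0.40, Pou3f3 by 4.71 ± 0.19, Tfap2b by 4.51 ± 0.17 and Lhx1 by 3.76 ± 0.16. Hnf4a measured 11.53 to 11.74 in kidney samples and up to 11.66 in untreated liver samples. Gata3 (3.64 in kidney cells and 4.56 elsewhere) and Maf (6.96 and 6.43) were not called. Markers of other kidney cells were lower or not called in most cases. Of 6 podocyte genes, 1 was called higher (Clic5, 1.90 ± 0.38) and 2 lower (Ptpro and Synpo), and Nphs1, which encodes nephrin, measured 3.96 in kidney cells and 4.02 elsewhere. Of 10 endothelial genes, 0 were called higher and 1 lower (Kdr), while 9 of 10 macrophage and leukocyte genes and 4 of 7 stromal genes were called lower, with medians of -3.29 and -1.29. Mean levels in the 4 kidney samples were 5.24 to 5.45 for the macrophage list, 5.38 to 5.63 for the endothelial list and 3.33 to 3.47 for the stromal list. Of 10 tubule injury genes, 0 were called higher and 6 lower than in the other organs, including the keratin gene Krt18, which measured 5.88 in kidney cells and 10.88 elsewhere, and Sox9, at 3.47 and 7.16. Others of the list were well measured in kidney cells, among them Cd24a (10.92 in kidney cells and 11.31 elsewhere) and Krt7 (8.35 and 8.01), which were not called, and Krt8 (9.72 and 11.22) and Clu (9.32 and 11.35), which were called lower. Krt18 and Sox9 are also genes of ducts and simple epithelia in the other organs.

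**Figure D3:**
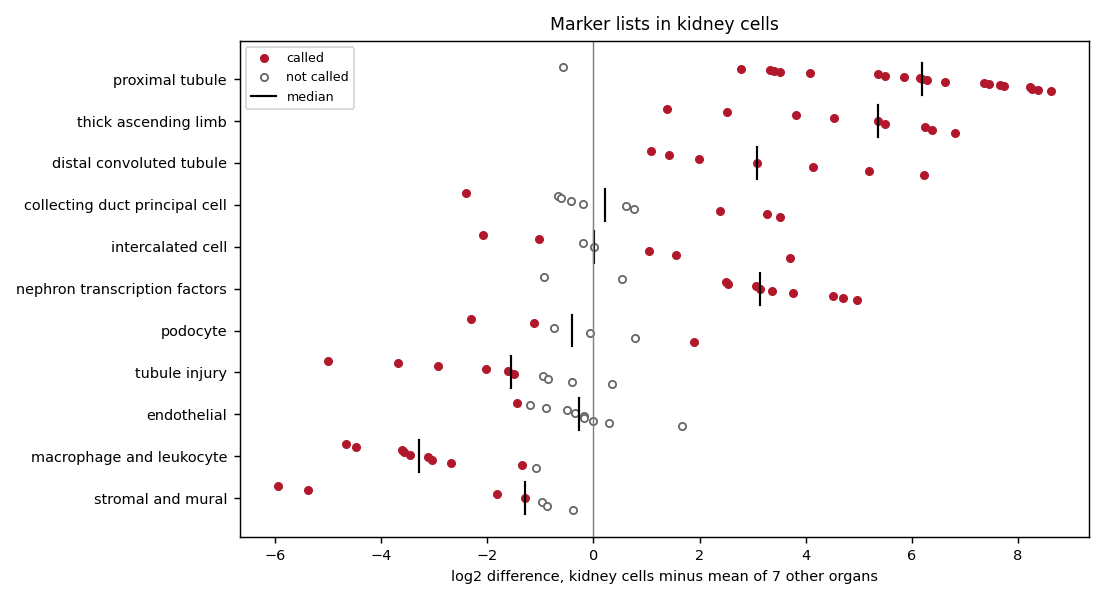
Log2 difference between kidney cells and the mean of the other 7 organs (x axis) for each tested gene of 11 marker lists (rows), filled where called, with a vertical bar at the median of each list. Proximal, thick limb and distal tubule lists lie to the right, with medians of 6.20, 5.37 and 3.09, and the macrophage list to the left at -3.29.

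Prom1, the gene of the sort, was high in kidney cells, at 10.67 to 10.81, but not in all groups. No unsorted kidney cells were among the samples for comparison. Prom1 measured 2.64 to 4.24 in untreated liver, 3.31 to 9.31 in DDC-treated liver and 5.30 to 6.79 in lung samples, so that the label of the sort was not matched by its gene in untreated liver. Array medians over all samples lay between 3.82 and 4.24. The 3′ minus 5′ difference of the actin control probe sets, which grows with RNA degradation, averaged 1.72 in kidney cells, the highest of the sorted groups, and 0.80 to 1.45 in the others. Its part in the levels was not tested.

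Set against each group of sorted cells alone, kidney cells were higher for all 8 genes in all 9 comparisons. Umod, Slc12a1 and Slc12a3 passed the filter only through kidney cells, so that their calls could only be higher. The same held for the other 5 genes wherever the mean of the other group was under the filter value. These counts are therefore not support for a direction. The share of all genes called higher was 24.1% against untreated liver, 17% against DDC-treated liver, 15.9% against neonatal liver, 28.9% against lung, 18.4% against prostate, 20.4% against salivary gland, 18.3% against small intestine, 17.8% against stomach and 18.8% against uterus. These 9 comparisons share the 4 kidney samples. For 3 genes the 9 groups gave similar differences, 10.14 to 10.59 for Umod, 9.29 to 9.79 for Slc12a1 and 5.86 to 6.29 for Slc12a3. For the other 5 they varied more. Cltrn differed by 4.14 ± 0.43 and Miox by 5.62 ± 0.38 from neonatal liver, Kap by 5.04 ± 0.75 from uterus and 8.14 ± 0.71 from untreated liver, and Slc5a12 by 5.69 ± 0.48 from small intestine and 8.23 ± 0.45 from lung. Aqp2 differed by 1.53 ± 0.31 from untreated liver and by 2.74 ± 0.35 from neonatal liver. Against stomach it differed by 1.66 ± 0.39, but by 1.12 without stomach sample 1, where the adjusted p in limma was 0.082 and the call was lost.

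Miox and Cltrn were both present in neonatal liver cells. Miox measured 7.02, 7.21 and 6.97 in neonatal liver samples, against 5.511, 2.550, 3.004, 2.994 and 2.938 in untreated liver samples. Cltrn measured 9.085, 8.094 and 9.004 in neonatal liver samples, against 6.05, 2.75, 2.84, 3.74 and 3.11 in untreated liver samples. For both genes every neonatal sample lay above every untreated sample, which held for 27.2% of all genes tested, and untreated liver sample 1 stood above the other 4. The difference was 3.67 ± 0.37 for Miox (limma, adjusted p = 1.37e-09) and 5.03 ± 0.42 for Cltrn (adjusted p = 1.70e-11), and 4.20 and 5.62 without untreated liver sample 1. Of 4 tubule genes tested in this comparison, these 2 were called higher, against 22.2% of all genes. Both passed the filter (4.08) only through neonatal liver cells, so that a call could only be higher. Tubule genes under the filter in both groups were not tested, so this count is not support for a direction. Aqp2 was called lower, against 8.62% of all genes, at 3.04, 3.32 and 2.86 in neonatal liver samples and 3.74, 5.33, 4.26, 4.11 and 3.97 in untreated liver samples. Aqp2 passed the filter only through untreated liver cells, so that its call could only be lower. These Aqp2 levels lie at, near or under the filter value, and without untreated liver sample 2 the gene did not pass the filter and was not tested.

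The rest of the proximal tubule list did not follow Miox and Cltrn in neonatal liver. Of 13 list genes tested there, 1 was higher, the dicarboxylate transporter Slc13a3 (4.39 ± 0.60), and 5 were lower, with a median of -1.01 against 0.31 over all genes tested. Slc13a3 passed the filter only through neonatal liver cells, so that its call could only be higher. Slc5a2 (3.48 in neonatal and 4.91 in untreated liver cells), Slc22a12 (3.24 and 4.47) and Slc22a6 (3.13 and 4.14) passed it only through untreated liver cells. Their calls could only be lower, so these counts are not support for a direction. The largest decreases were in Keg1, at 7.28 in neonatal and 10.30 in untreated liver cells, and Slc3a1, a cystine transporter subunit, at 5.72 in neonatal and 8.66 in untreated liver cells. Neonatal and untreated liver cells also differed in the sort marker and in stage markers. Prom1 was 10.23 to 10.38 in neonatal and 2.64 to 4.24 in untreated liver samples. Epcam, an epithelial and bile duct adhesion molecule, was 10.02 to 10.69 in neonatal and 3.26 to 4.75 in untreated liver samples, and Afp, the fetal liver protein alpha-fetoprotein, 13.43 to 13.64 and 2.44 to 3.34. The part of these differences in the Miox and Cltrn values was not tested.

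In DDC-treated liver cells Miox ran from 2.71 to 3.97 (median 3.06) and Cltrn from 2.62 to 3.45 (median 3.16), all under the filter value. Neither gene was tested against untreated liver, since both group means were under the filter value. Of the 2 tubule genes tested there, Aqp2 and Kap, limma called 0, while 16.3% of all genes were called higher and 5.49% lower. At an unadjusted p under 0.05 there was 1, Aqp2. Aqp2 averaged 3.50 after DDC and 4.28 in untreated liver (limma, adjusted p = 0.014), a difference smaller than the log2 threshold of 1. Like Kap, Aqp2 passed the filter only through untreated liver cells, so that a call could only be lower. Without untreated liver sample 2 the gene did not pass it.

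Kap was present in uterus cells. The 4 uterus samples measured 5.83, 8.86, 6.29 and 8.47, and averaged 7.36 ± 1.52 (SD). Apart from untreated liver sample 1 at 9.10, samples of the other 6 organs outside kidney lay between 2.61 and 3.84. Uterus cells were higher than those 6 organs by 4.05 ± 0.58 (limma, adjusted p = 1.11e-06), and by 4.25 without that liver sample. Of 3 tubule genes tested, Kap was the 1 called higher, against 14.9% of all genes. The second Kap probe set gave 7.05 in uterus and 12.49 in kidney, and both probe sets correlated at r = 0.99 over all arrays. The macrophage list averaged 10.93 to 11.25 in uterus samples and 5.24 to 5.45 in kidney samples, and the stromal list 8.07 to 9.05 and 3.33 to 3.47. Their part in the Kap level was not tested.

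Slc5a12 was present in small intestine cells, at 9.21, 5.72 and 5.83. The value of sample 1 stood far above those of samples 2 and 3. The 3′ minus 5′ actin difference was 0.70 in sample 1, 1.19 in sample 2 and 1.10 in sample 3, and its part was not tested. Lung cells followed, at 5.76, 3.15, 4.87 and 3.72, so that the ranges of small intestine and lung overlapped, and no other sample outside kidney passed the filter value. Small intestine cells were higher than the other 6 organs outside kidney by 3.85 ± 0.39 (limma, adjusted p = 5.74e-10), and by 2.71 without sample 1. Of 3 tubule genes tested there, Slc5a12 was the 1 called higher, against 15.3% of all genes. The second Slc5a12 probe set averaged 5.12 in small intestine and 11.20 in kidney. Of 19 proximal tubule list genes tested in the same comparison, 10 were higher and 1 lower in small intestine, with a median of 1.49 against 0.04 over all genes.

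Slc5a12 was also called lower in prostate (difference -1.07 ± 0.39, against 6.91% of all genes) and salivary gland cells (-1.25 ± 0.39, against 9.59%). Both groups lay under the filter value in all samples, at 2.48 to 2.91 in prostate and 2.34 to 2.74 in salivary gland, and their comparison means held the small intestine samples. The same fit called 0 of 3 tubule genes for untreated liver, where 10.7% of all genes were higher and 19.7% lower, and for stomach, where the shares were 9.38% and 10.6%. At an unadjusted p under 0.05 there were 0 in both. For lung cells it also called 0 of 3, against 12.3% of all genes higher and 17.9% lower. There 1 gene had an unadjusted p under 0.05, Slc5a12, which was higher by 0.89 ± 0.35 (adjusted p = 0.033).

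Untreated liver sample 1 stood apart from the other 4 for Kap, Miox and Cltrn, but not for the proximal tubule list as a whole. Kap was 9.10 in that sample and 2.61 to 3.84 in the others, and Slc22a6, an organic anion transporter, was 5.65 in that sample and 3.50 to 3.96 in the others. Slc7a13, a proximal amino acid transporter, was 5.02 there and 3.15 to 4.17 in the others. The glucose transporter gene Slc5a2 went the other way, at 4.35 in that sample and 4.88 to 5.26 in the others, as did Slc3a1, at 6.84 and 7.05 to 11.04. The thick limb genes did not follow, with Umod at 2.81 and Slc12a1 at 3.12. Of the 22 proximal tubule list genes, 6 (27.3%) were higher in that sample than in all other 4 and 2 were lower than in all. The first held for 23.6% of all genes measured, a similar share, and for 5 of 10 endothelial list genes. The array of that sample also differed, with a 75th percentile of 6.54, against 6.14 to 6.23 in samples 2 to 5. Its 3′ minus 5′ actin difference was 1.05, against 1.40 to 1.73 in those samples. The part of these array differences in the levels was not tested.

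The same genes were compared between tumours and sorted cells of the same organ. Tumours were dissected and extracted with another RNA kit than the sorted cells, so tumour state, sorting and kit cannot be told apart. In uterine carcinoma Kap measured 3.15, 3.12 and 3.26, against 5.83, 8.86, 6.29 and 8.47 in uterus cells, and fell by 4.19 on the log2 scale (SE 0.73, limma, adjusted p = 0.0055). It was the 1 tubule gene tested, where 10.2% of all genes were called lower. Kap passed the filter of this fit (4.30) only through uterus cells, so that a call could only be lower. A metastasis of uterine carcinoma to the abdomen measured 5.85 and a metastasis to the liver 3.99. The macrophage list averaged 7.59 to 8.88 in uterine carcinoma and 10.93 to 11.25 in uterus cells.

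In small intestinal adenoma Slc5a12 measured 2.68, 2.91 and 2.54, against 9.21, 5.72 and 5.83 in small intestine cells. The groups did not overlap, and Slc5a12 fell by 4.21 on the log2 scale (SE 0.88, limma, adjusted p = 0.012). It was the 1 called of 2 tubule genes tested, where 8.44% of all genes were called lower. Slc5a12 passed the filter of this fit (4.02) only through small intestine cells, so that a call could only be lower. With the mean of its probe sets the difference was -3.40 and the adjusted p in limma 0.052. The mean level of the proximal tubule list was 4.26 to 4.98 in adenomas and 6.09 to 6.57 in small intestine cells.

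Cltrn was called higher in bronchopulmonary adenocarcinoma and lower in hepatoblastoma, each against sorted cells of its organ. In bronchopulmonary adenocarcinoma it measured 8.10 and 6.14, against 2.95, 3.29, 3.18 and 3.42 in lung cells, a difference of 3.91 ± 0.61 (limma, adjusted p = 0.0027). It was the 1 called of 2 tubule genes tested, where 5.79% of all genes were called higher. Cltrn passed the filter of this fit (4.19) only through the tumours, so that a call could only be higher. In hepatoblastoma it measured 3.80 and 3.12, against 9.085, 8.094 and 9.004 in neonatal liver cells, and fell by 5.27 on the log2 scale (SE 0.41, adjusted p = 0.0069). It was the 1 called of 2 tested, where 7.57% of all genes were called lower. Here Cltrn passed the filter (4.13) only through neonatal liver cells, so that a call could only be lower. Without neonatal liver sample 1 or 3 the adjusted p in limma was 0.080 or 0.081, and 0 of all genes were called. The effect in lung minus the effect in hepatoblastoma was 9.18 ± 0.81 in a limma fit of the 4 groups (adjusted p = 6.74e-05, with 1035 of 11939 genes tested passing the same call rule). Cltrn was picked for this fit because the same samples had given calls of opposite sign. A difference was therefore fixed in advance, and its p-value is not further support. Epcam also differed between these groups in the same directions, at 11.12 to 11.24 in bronchopulmonary adenocarcinoma and 7.43 to 9.08 in lung cells, and at 3.13 to 4.88 in hepatoblastoma and 10.02 to 10.69 in neonatal liver cells. Its part in the Cltrn values was not tested.

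Miox in hepatoblastoma measured 5.59 and 2.95, against 7.02, 7.21 and 6.97 in neonatal liver cells. The groups did not overlap, but the difference of -2.80 ± 0.78 was not called (limma, adjusted p = 0.074). The lung metastasis of hepatoblastoma measured 5.59 for Miox and 3.56 for Cltrn. In HCC/CC, Miox ran from 2.77 to 9.64 over 14 tumours, with 3 tumours over the filter value: tumour 3 at 9.64, tumour 1 at 6.19 and tumour 9 at 5.29. Afp was 11.99 in tumour 3, 11.18 in tumour 1 and 7.45 in tumour 9, and 3.55 to 10.20 in the other 11 tumours, so that these overlapped. Cltrn in HCC/CC ran from 2.70 to 4.49 and averaged 3.23, against 3.70 in untreated liver cells, with tumours 2 and 5 over the filter value. Miox and Cltrn did not pass the filter of the fit against untreated liver (4.12) and were not tested. Of the 2 tubule genes tested in HCC/CC, Aqp2 and Kap, limma called 0 (17.6% of all genes higher, 6.27% lower). Of these 2, 1 had an unadjusted p under 0.05, Aqp2, which averaged 3.48 in HCC/CC and 4.28 in untreated liver. Aqp2 passed that filter only through untreated liver cells, so that a call could only be lower.

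Umod was the thick limb gene found outside kidney. It measured 8.82 in HCC/CC tumour 5 and 11.30 in tumour 11, and 2.37 to 3.09 in the other 12 HCC/CC tumours. The intestine metastasis of HCC/CC measured 9.95 and its lung metastasis 11.85, against at most 3.40 in untreated liver cells. These 4 were the only samples of the 99 outside kidney over the filter value for Umod. The 2 Umod probe sets correlated at r = 0.99 over all arrays. In the same samples Slc12a1, the other thick limb gene, measured 2.94, 2.66, 2.98 and 2.92, all under the filter value. Epcam was 9.13 in tumour 5, 11.78 in tumour 11, 11.80 in the intestine metastasis and 11.91 in the lung metastasis, and 3.50 to 12.24 in the other HCC/CC tumours. HCC/CC tumour 2 had the highest Epcam, 12.24, with Umod at 2.64. Umod was not tested in HCC/CC against liver, since neither group mean passed the filter of that fit.

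**Figure D4:**
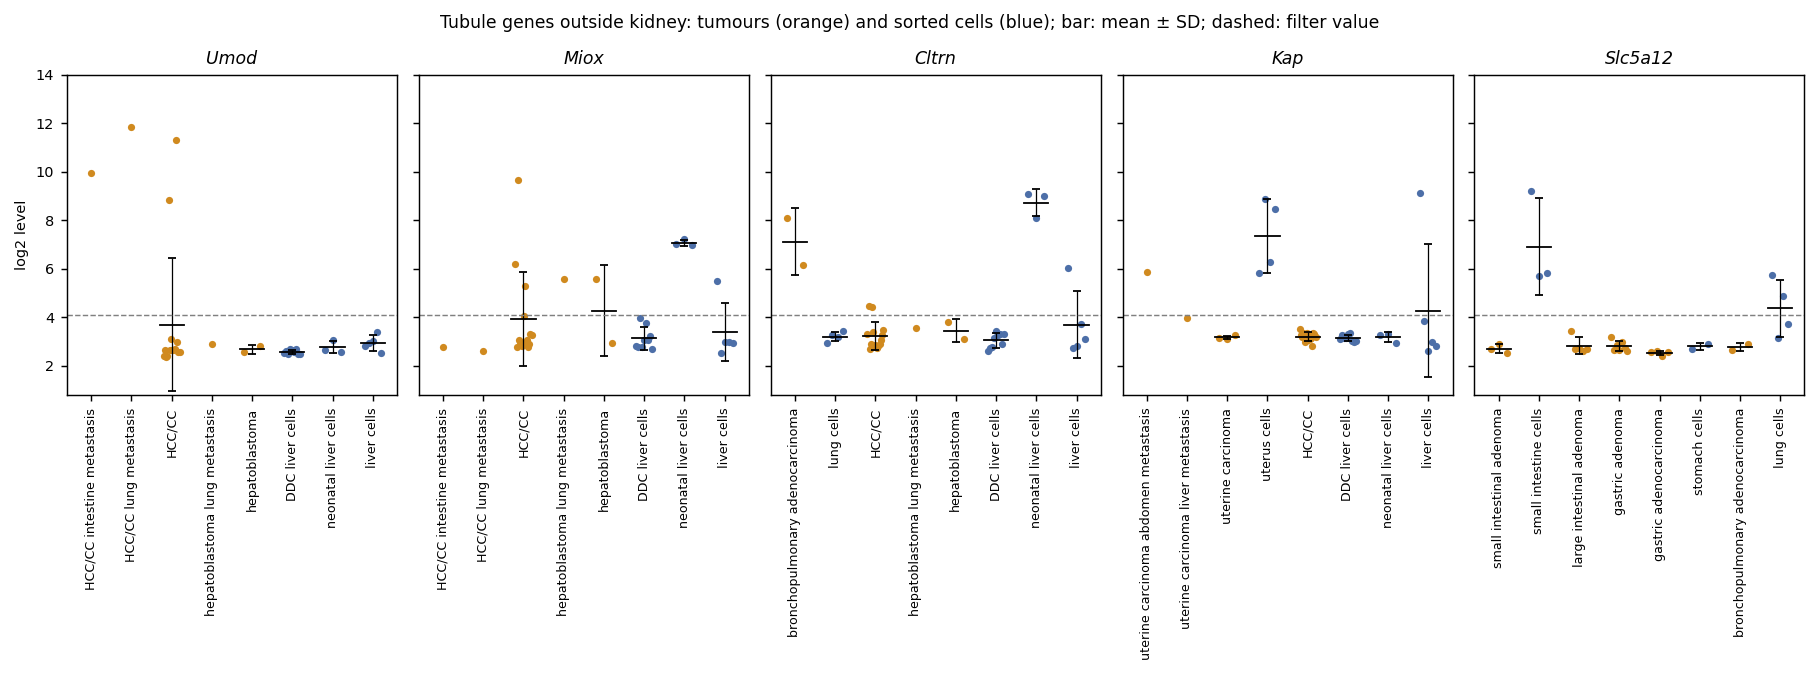
Log2 levels of 5 tubule genes (y axis) in tumours (orange) and sorted cells (blue) outside kidney, with points for samples, bars for mean ± SD where a group holds more than 1 sample and a dashed line at the filter value of 4.08. Umod is high in 4 HCC/CC samples, Miox and Cltrn in neonatal liver cells, Cltrn in bronchopulmonary adenocarcinoma, Kap in uterus cells and Slc5a12 in small intestine cells.

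The remaining tumours held these genes at low levels. In prostatic adenocarcinoma none of the 8 genes passed the filter of the fit against prostate cells, so none was tested. In gastric adenoma and gastric adenocarcinoma limma called 0 of the 1 tubule gene tested, Aqp2, and 0 had an unadjusted p under 0.05. The shares of all genes called there were 8.14% higher and 3.07% lower in adenoma, and 17.9% and 10.5% in adenocarcinoma. Aqp2 averaged 3.52 in gastric adenoma, 3.39 in gastric adenocarcinoma and 4.16 in stomach cells.

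By group means over all 29 groups, the closest genes to each tubule gene were named by Pearson correlation, given as a description, with the kidney mean among the points. Abca13 (r = 0.95), Unc5c (0.91) and Slc13a4 (0.88) were closest to Umod. Acsm2, Slc22a8 and Kcnj1 were closest to Slc12a1, each at r = 0.99. For Slc12a3 they were Defb29 (0.99), Slc34a3, a renal phosphate cotransporter (0.99), and Tmem174 (0.99), and for Aqp2 Car15, a carbonic anhydrase (0.92), Oxgr1 (0.90) and Pde6a (0.89). Hsd3b4 (0.95), the organic cation transporter gene Slc22a2 (0.94) and Eprn (0.94) were closest to Miox, and Syn3 (0.94), Eprn (0.90) and Slc35f1 (0.88) to Cltrn. For Slc5a12 they were Dao, which encodes D-amino acid oxidase (0.99), Sypl2 (0.96) and Slc6a20b (0.96), and for Kap Dleu7 (0.95), Slc7a13 (0.91) and Casr, the calcium-sensing receptor gene (0.88). Across the group means without kidney, the highest correlation between tubule genes was 0.66, for Miox with Cltrn, which are both high in neonatal liver.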

How the data were processed

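Total RNA of sorted mouse cells and dissected tumours was measured on Affymetrix mouse arrays of perfect-match probes. The values the authors deposited lie between 1.85 and 14.36 and were taken as log2. Partek 6.6 is named, per the submitters' processing notes; the normalization is not given in the sources used here. Of 45141 probe sets, 28898 named 1 of 17097 genes. Per the labels' protocols, sorted cells were extracted with PicoPure and tumours with RNeasy Mini kits.

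Group means were fitted with an intensity trend (limma 3.58.1, R 4.3.3), over the 40 sorted samples or, for tumours, over the compared groups. Genes were tested when a compared group mean passed the 40th percentile of the fitted group means. P-values were adjusted by Benjamini-Hochberg over all genes tested in each of 27 comparisons. The number of arrays limits the precision.

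The genes and 12 marker lists (138 genes, 120 measured) were chosen with earlier results of these data known. Besides the tubule genes, the text names the 3 closest genes of each. It also names up to 4 list genes with the largest differences and called genes of opposite sign. Further genes were chosen after their values were seen. These were the sort, stage and epithelial markers, Nphs1, Napsa, the sodium channel subunits, Gata3, Maf, Cd24a, Krt7, Krt8, Slc22a6, Slc7a13, Slc5a2 and Kdm5d. Slc22a12, Pck1 and Enox1 were also named after their values were seen. On simulated data, the kidney comparison recovered 91% of genes changed by a log2 of 2 and 99% of those changed by 3 (11119 genes), and the lung adenocarcinoma comparison 8% and 27% (10745 genes). The changes were made only in genes with mean levels above the filter value, with independent noise. These shares therefore do not cover genes at lower levels, such as most tubule genes outside kidney. The alternatives tried comprised quantile normalization, arrays centred on their medians, filters at none or the 60th percentile, averaged probe sets, cross-hybridising probe sets left out, no trend, every sample of the series in the fit, and each sample left out. Python 3.11.15 with pandas 2.3.3 (numpy 2.4.6) served for tables, and matplotlib 3.10.9 for figures.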

Additional observations from a re-analysis of the deposited data

Results flagged for a closer look

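In 80 tests of a gene in a group of 4 to 10 samples, 7 found a sample far from the rest of its group by Dixon's test, where chance gives about 1 in 20. Kap was 9.10 in untreated liver sample 1 (next 3.84), and Miox was 5.51 in the same sample (next 3.004). The other flags lay under the filter value: Miox at 3.05 in uterus sample 2 (next 2.90), Slc5a12 at 3.43 in large intestinal adenoma 1 (next 2.74), Cltrn at 3.77 in gastric adenoma 4 (next 3.08), and Cltrn at 3.14 and Aqp2 at 3.63 in gastric adenocarcinoma 3 (next 2.83 and 3.31).

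The tumour effect on Cltrn differed between bronchopulmonary adenocarcinoma and hepatoblastoma by 9.18 on the log2 scale (3.91 and -5.27, each against sorted cells of its organ). The gene was picked by its opposite calls in these same samples, so a difference was fixed in advance. In 2 metastases that entered no test, Umod measured 9.95 (HCC/CC intestine metastasis) and 11.85 (HCC/CC lung metastasis), above the highest untreated liver sample at 3.40.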

How the results depend on the processing

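No paired analysis was possible because the labels give no replicate numbers that pair samples across groups. Leaving out each sample in turn, all 8 tubule genes were called higher in every kidney comparison except against stomach, where 7 to 8 were called. The number called was 0 to 1 for lung, prostate and salivary gland cells against the other organs and for gastric adenoma and gastric adenocarcinoma against stomach cells, 2 to 3 for neonatal against untreated liver, 0 to 2 for hepatoblastoma, and 1 to 2 for small intestinal adenoma. With the mean of probe sets the count was 0 for prostate, 0 for salivary gland and 0 for small intestinal adenoma. With every sample of the series in the fit it was 1 for DDC-treated liver and 1 for HCC/CC (Kap in both), 2 for hepatoblastoma (Cltrn and Miox) and 2 for bronchopulmonary adenocarcinoma (Cltrn and Slc5a12). Both Kap calls rest on untreated liver sample 1, where Kap was 9.10, against at most 3.84 in the other untreated liver samples. The causes were not tested. No call changed sign under the alternatives run.

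Counts over all genes moved by more than 1.5 times for hepatoblastoma (1361 called, 0 to 3591 with a sample left out), bronchopulmonary adenocarcinoma (910, 392 to 1524 with a sample left out, and 3619 with every sample of the series in the fit), stomach cells (2574, and 1454 without stomach sample 1), gastric adenoma (1220, and 794 without stomach sample 2) and gastric adenocarcinoma (3189, and 1954 without stomach sample 2). Low levels limit the comparisons between groups outside kidney, and groups of 2 samples limit the tumour comparisons.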

Other observations

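Sex-linked genes and sex-biased genes of mouse kidney were also read in kidney cells. Cyp2e1, an ethanol-oxidising enzyme, was higher than the mean of the other 7 organs by 7.17 ± 0.38 but measured 12.22 to 12.37 in kidney samples, against 12.38 to 13.01 in untreated liver samples. Uty, a Y-linked gene, was higher than that mean by 1.55 ± 0.47, while Xist was lower by 2.09 on the log2 scale. Adjusted p in limma was 7.38e-18 for Cyp2e1, 0.0063 for Uty and 0.040 for Xist. The Y-linked genes Eif2s3y (8.79 in kidney cells and 7.07 elsewhere) and Kdm5d (6.45 and 5.51) were not called. Mean Xist was 4.32 in kidney cells, near the prostate (3.67), salivary gland (4.01), lung (4.29) and untreated liver (4.40) means. Higher Xist means came from cells of small intestine (6.78), stomach (10.07) and uterus (11.61). The part of sex in the Uty and Xist differences was not tested. Slco1a1, an organic anion transporter, measured 3.84 in kidney cells and 4.28 elsewhere and was not called.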
